A study of Mus musculus with 6 samples.

Results

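The 10 genes described here encode heat shock proteins of the cytosol and the mitochondrial matrix: the Hsp70 genes Hspa8, Hspa1a and Hspa1b, their J-domain partners Dnajb1 and Dnaja1, the nucleotide exchange factor Hsph1, the Hsp90 genes Hsp90aa1 and Hsp90ab1, and the mitochondrial chaperonin Hspd1 with its lid Hspe1. They were taken by symbol, and each matched 1 of the 56691 gene identifiers of the table. Livers of 6 pregnant female wild-type (WT) mice of the C57BL/6J strain were studied. The 3 PF mice were pregnant and received a high-fructose diet (HFrD), while the 3 PC mice were pregnant on normal chow (NC), so every mouse was pregnant and the groups differed by diet. Whole liver was used, and a difference in bulk RNA cannot separate fewer cells of a type from less RNA per cell.

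Heat shock proteins bind unfolded segments of other proteins. Hsp70 proteins take up such segments with the help of J-domain proteins, which deliver the client and stimulate ATP hydrolysis, and of exchange factors, which release ADP. Hsp90 receives more mature clients, steroid hormone receptors among them. In the mitochondrial matrix Hsp60 (Hspd1) forms a folding chamber that Hsp10 (Hspe1) closes. Heat shock factor 1 (Hsf1) binds heat shock elements, alternating GAA and TTC units spaced by a pair of bases, and raises the inducible members after heat or proteotoxic stress. Hspa8 and Hsp90ab1 are made constitutively, Hspa1a and Hspa1b mainly under stress.

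Because Hsf1 binds such elements, stretches before the members that match their units are shown. Binding of Hsf1 to them was not tested. RefSeq promoter sequences of the GRCm38.p6 build were matched for 7 of the 10 members, those other than Hspa8, Hsp90aa1 and Hsp90ab1. Within 250 bases before at least 1 of a gene's start sites, GAANNTTC or TTCNNGAA, each its own reverse complement, was present for 6 of these 7, against 14.5% of the 27025 genes with a promoter sequence, counted the same way. It was there for 2 of 2 start sites of Hsph1, 1 of 3 of Dnaja1 and 1 of 2 of Hspd1. Each line below gives 30 bases, 5′ to 3′ on the strand of the gene, with the matched units and the bases between them in capitals.
Hspa1a: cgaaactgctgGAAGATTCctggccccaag
Hspa1b: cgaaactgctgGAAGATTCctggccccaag
Hsph1: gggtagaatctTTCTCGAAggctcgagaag
Dnaja1: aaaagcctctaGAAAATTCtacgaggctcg
Hspe1: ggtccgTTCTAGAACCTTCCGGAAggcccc
The Hspa1a stretch (chr17:34972242-34972271, minus strand) and the Hspa1b stretch (chr17:34959324-34959353, minus strand) were the same, with the match at −104 to −97 from the start site in both, and 247 of the 250 upstream bases of the pair were identical. The match lay at −33 to −26 for Hsph1 (chr5:149636351-149636380, minus strand) and at −124 to −117 for Dnaja1 (chr4:40722333-40722362, plus strand). Hspe1 and Hspd1 are head-to-head neighbours, and the same 30 bases (chr1:55088053-55088082) hold 4 alternating units, at −89 to −72 from the Hspe1 start and at −144 to −127 from the Hspd1 start on the other strand. A run of 3 or more such units was found before 0.514% of genes. The window of Dnajb1 held neither motif. Exons of annotated transcripts of Hsph1, of Dnaja1 and its neighbour Gm6297, and of Hspd1 cover their stretches in GENCODE M21, and those of Hspa1a and Hspa1b lie outside exons.

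The libraries held between 16119145 and 19676361 counts. Alb, the main hepatocyte transcript, took 7.56% to 15.8% of the counts in PF and 18.1% to 19.9% in PC. TMM factors, which correct for such transcripts, were 0.984 to 1.23 in PF and 0.850 to 0.908 in PC. Transcripts of the mitochondrial chromosome took 10.0% to 15.3% of counts in PF and 5.03% to 9.69% in PC, also without overlap. Gene levels are counts per 1e6 counts after TMM scaling (CPM). Summed levels of the 10 hepatocyte markers were 88707 to 198945 CPM in PF and 249756 to 300748 CPM in PC, and did not overlap. Alb made up 63.8% to 80.8% of that sum, 7 of the 10 markers were lower and 3 higher in PF, and Ttr was higher in all PF libraries (3117 compared with 1805 CPM as means, log2 fold change 0.79). Sums of the 8 Kupffer cell, 7 sinusoidal endothelial, 6 stellate, 5 cholangiocyte, 5 erythroid, 6 lymphocyte and 4 neutrophil markers overlapped between the groups, and no marker was at 0 in all libraries. Clock genes set PF1 and PC3 apart within their groups: log2 of Dbp over Arntl was −3.42 in PF1 and −4.44 in PC3, compared with 4.35 to 6.22 in the other 4 libraries. The part of these differences in the results below was not tested, and the members without PF1 and PC3 are described below.

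The comparison of PF with PC asked whether HFrD in pregnancy went with other levels of these chaperones. It gave no called difference. Genes were tested where FPKM averaged 1 or more (FPKM is counts per kilobase of exon and per 1e6 counts), which kept 9 of the 10 members and left out Hspa1a. At an adjusted p under 0.05, edgeR's quasi-likelihood test with Benjamini-Hochberg adjustment called 0 of the 9 (0% of all 10756 tested genes) and DESeq2 also called 0 (1.97% of all tested genes were called higher and 2.61% lower). At an unadjusted edgeR p under 0.05, 0 members were higher and 0 were lower, where 9.13% of all tested genes were higher and 7.9% were lower. Fitted levels were higher in PF for 4 members and lower for 5, with a median log2 fold change of −0.23, compared with 0.02 over all tested genes. The groups did not overlap for 1 member, Dnaja1, which was lower in PF, where 11.1% of tested genes were lower without overlap and 11.8% higher.

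**Figure D1:**
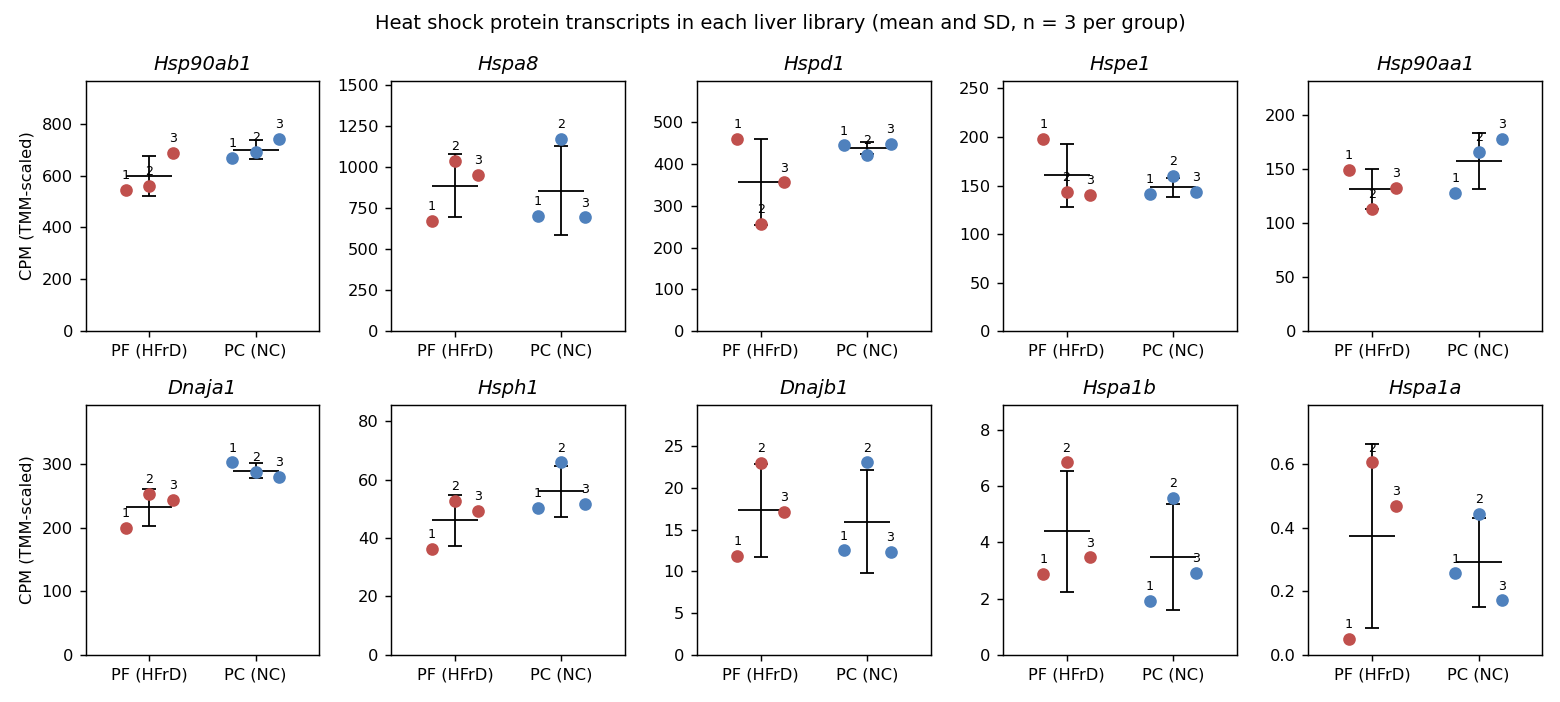
Each panel shows 1 gene, ordered by mean FPKM, with the level in CPM scaled by TMM (linear axis from 0) for each PF library (red) and PC library (blue), replicate numbers beside the points, and mean and SD as bars (n = 3). The groups separate for Dnaja1 alone, and Hspa8, Dnajb1 and Hspa1b are highest in replicate 2 of both diets.

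Of the Hsp70 genes, Hspa8 (chromosome 9, 40712280 to 40721383 on GRCm39), the constitutive Hsc70 that folds new proteins and uncoats clathrin vesicles, was at 670.2, 1037 and 955 CPM in PF1, PF2 and PF3 and at 705, 1173 and 694 CPM in PC1, PC2 and PC3. Both groups spanned the same range, with PC2 and PF2 high and PF1, PC1 and PC3 low. The means were 887 ± 192 CPM in PF and 857 ± 273 CPM in PC (SD, n = 3), a log2 fold change of 0.05 with a standard error of 0.30 and a 95% interval of −0.64 to 0.74 (edgeR adjusted p = 0.954). The highest library exceeded the lowest by 1.55 times within PF and by 1.69 times within PC, whereas the fitted diet difference was 1.03-fold. Its sign turned without PF2, PF3, PC1 or PC3.

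Hspa1b (chromosome 17, 35175412 to 35178214), a stress-inducible Hsp70, was far lower, at 2.87, 6.85 and 3.47 CPM in PF1, PF2 and PF3 and 1.93, 5.59 and 2.92 CPM in PC1, PC2 and PC3, from 30 to 113 counts per library. It followed Hspa8 in being highest in PF2 and PC2. The log2 fold change was 0.33 with a 95% interval of −0.77 to 1.43 (standard error 0.47, edgeR adjusted p = 0.763), and it was −0.14 without PF2 and 0.85 without PC2. Hspa1a (chromosome 17, 35188166 to 35191132), which encodes a nearly identical protein, had 1, 10 and 10 counts in PF1, PF2 and PF3 and 4, 7 and 3 counts in PC1, PC2 and PC3. At so few counts no fold is given. The inducible Hsp70 transcripts were thus detected in every liver but at 6.85 CPM at most. Of all stretches of 150 bases in the longest Hspa1b transcript, 40.5% also stand in a transcript of another gene, mostly Hspa1a, so the split of reads between the 2 genes is uncertain. With their counts added, the log2 fold change was 0.33 (edgeR adjusted p = 0.761).

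Dnajb1 (chromosome 8, 84334822 to 84339282), the Hsp40 that stimulates Hsp70 and rises with it after heat, was at 11.9, 23.0 and 17.1 CPM in PF1, PF2 and PF3 and at 12.5, 23.1 and 12.3 CPM in PC1, PC2 and PC3. The libraries stood in the same order as for Hspa8, with PF2 and PC2 at the same level on opposite diets. The log2 fold change was 0.12 with a 95% interval of −0.64 to 0.87 (standard error 0.32, edgeR adjusted p = 0.887). It turned to −0.14 without PF2, and also below 0 without PC1 or PC3.

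Dnaja1 (chromosome 4, 40722150 to 40737149), a farnesylated J-domain protein of the cytosol, was at 199, 253 and 243 CPM in PF1, PF2 and PF3 and at 302, 287 and 279 CPM in PC1, PC2 and PC3. Every PF library lay below every PC library. The means were 232 ± 28.7 and 289 ± 11.8 CPM (n = 3), 1.25-fold lower in PF, with a log2 fold change of −0.32 and a 95% interval of −0.72 to 0.08 (standard error 0.17, edgeR adjusted p = 0.382, DESeq2 adjusted p = 0.301). It kept its sign with RLE and upper quartile factors, which also correct for composition. On the deposited FPKM scale, which does not, the values were 28.4, 28.9 and 34.0 in PF and 29.8, 30.2 and 28.7 in PC, which overlap. Dnaja1 overlaps Smu1 on the other strand over 608 bases, and Smu1 had counts equal to 15.0% of those of Dnaja1. How strand was handled in counting is not given in the sources used here, so reads of the overlap cannot be told apart.

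Hsph1 (chromosome 5, 149537752 to 149559841), the Hsp110 that exchanges the nucleotide of Hsp70, was at 36.1, 52.7 and 49.2 CPM in PF1, PF2 and PF3 and at 50.2, 65.8 and 51.8 CPM in PC1, PC2 and PC3. PF1 was the lowest and PC2 the highest library, and the others lay close together. The log2 fold change was −0.28 with a 95% interval of −0.73 to 0.17 (standard error 0.19, edgeR adjusted p = 0.495).

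Of the Hsp90 genes, Hsp90ab1 (chromosome 17, 45878701 to 45884197), the constitutive form, was at 545, 560.1 and 686 CPM in PF1, PF2 and PF3 and at 668, 691 and 742 CPM in PC1, PC2 and PC3. Only PF3 reached the PC range. The means were 597 ± 77.4 and 700.3 ± 37.6 CPM (n = 3), a log2 fold change of −0.23 with a 95% interval of −0.68 to 0.22 (standard error 0.19, edgeR adjusted p = 0.582). Hsp90aa1 (chromosome 12, 110657039 to 110669162), the inducible form, was at 149, 113 and 132 CPM in PF and at 128, 165 and 178 CPM in PC, and the groups overlapped through PF1, PF3 and PC1. Its log2 fold change was −0.26 with a 95% interval of −0.70 to 0.19 (standard error 0.19, edgeR adjusted p = 0.537). Neither Hsp90 gene was highest in PF2, the library in which Hspa1b was highest, and in PF2 Hsp90aa1 had its lowest level. For Hsp90aa1, 36.2% of 150-base stretches are shared with other genes' transcripts, and for Hsp90ab1 none. The share was 21.9% for Hspa8, 18.6% for Hspd1 and 11.6% for Dnaja1, so their reads may also be split with other genes.

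In mitochondria, Hspd1 (chromosome 1, 55116994 to 55127402) was at 460.4, 256 and 356 CPM in PF1, PF2 and PF3 and at 444, 421 and 448 CPM in PC1, PC2 and PC3. The PC libraries agreed within 1.07 times, while PF spanned 1.80 times, from PF2 below all others to PF1 above all others. The log2 fold change was −0.29 with a 95% interval of −0.85 to 0.27 (standard error 0.24, edgeR adjusted p = 0.571). It was −0.52 without PF1, −0.11 without PF2 and −0.50 without both PF1 and PC3. Hspe1 (chromosome 1, 55127291 to 55130466) was at 198, 143 and 141 CPM in PF1, PF2 and PF3 and at 141, 159.7 and 144 CPM in PC1, PC2 and PC3. Here PF1 stood alone above 5 libraries that lay close together. Its log2 fold change was 0.12 with a 95% interval of −0.32 to 0.55 (standard error 0.19, edgeR adjusted p = 0.79). Without PF1 and PC3 it was −0.08.

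The chaperonin and its lid share a promoter region, and their ratio needs no scaling between libraries. The FPKM of Hspe1 over that of Hspd1 was 0.771, 1.00 and 0.709 in PF1, PF2 and PF3 and 0.570, 0.680 and 0.575 in PC1, PC2 and PC3. All PF ratios lay above all PC ratios, with PF3 and PC2 nearest to each other. The means were 0.827 ± 0.155 in PF and 0.608 ± 0.0622 in PC (two-sided exact permutation test p = 0.1, the smallest that 3 against 3 can give, and 0.5 after Benjamini-Hochberg adjustment over 5 ratios and shares). The ratio was chosen after the values of both genes were seen, and the genes overlap on opposite strands over 112 bases.

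Per length, the members spanned from 217 FPKM for Hsp90ab1, as the mean of the 6 libraries, to 0.112 FPKM for Hspa1a. Hsp90ab1 (184 to 276 FPKM) and Hspa8 (139 to 268 FPKM, mean 204) overlapped and were not separated. Hspd1 (95.3 to 215 FPKM, mean 152) and Hspe1 (81.4 to 166 FPKM, mean 107) also overlapped each other, and Hspd1 reached the range of Hspa8. Hsp90aa1 (27.6 to 46.8 FPKM, mean 36.9) and Dnaja1 (28.4 to 34.0 FPKM) formed a next, overlapping pair below all libraries of the first 4 genes. Hsph1 (5.87 to 8.22 FPKM) and Dnajb1 (3.32 to 7.05 FPKM) overlapped below these, followed by Hspa1b (0.58 to 2.40 FPKM) and Hspa1a (0.02 to 0.20 FPKM), each below every library of the gene before it. Constitutive forms held most of each family. Hspa8 made up 98.9% to 99.5% of the summed FPKM of the 3 Hsp70 members, with means of 99.2% in PF and 99.4% in PC (two-sided exact permutation test p = 0.6, adjusted 0.75, n = 3). Hsp90ab1 made up 82.7% to 87.3% of the summed FPKM of the Hsp90 pair, at 85.5% in both groups (exact permutation p = 1). Dnajb1 stood at 0.0238 to 0.0297 of the FPKM of Hspa8 in all 6 libraries (exact permutation p = 0.6, adjusted 0.75). The 10 members together took 0.241% to 0.311% of all counts in PF and 0.208% to 0.272% in PC (exact permutation p = 0.2, adjusted 0.5).

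The direction of the members depended on the scaling between libraries. Scaled by library totals alone, all 9 tested members were higher in PF, with a median log2 fold change of 0.14, while the median of all tested genes moved from 0.02 to 0.39. Relative to all genes, the median of the members was lower under both scalings. A change of scaling moves all genes by nearly the same amount, so the second scaling is no separate check of this. Dnaja1, Hspd1, Hsph1, Hsp90aa1 and Hsp90ab1, lower in PF with TMM, were higher with library totals, at log2 fold changes from 0.04 to 0.14, and on the FPKM scale. Under the settings tried, edgeR, DESeq2 and limma called 0 members at an adjusted p under 0.05 and found 0 at an unadjusted p under 0.05.

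**Figure D2:**
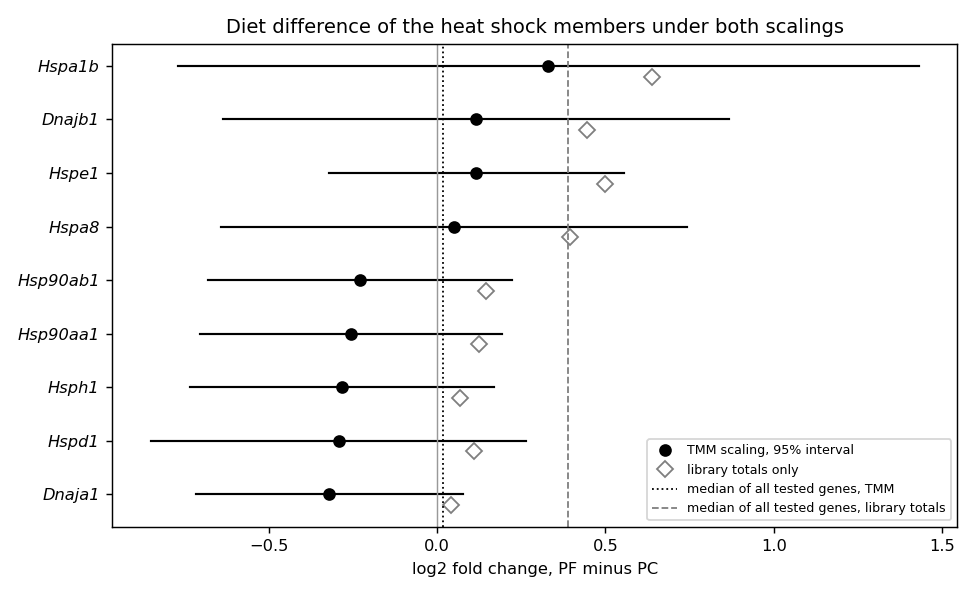
Points give the log2 fold change of each tested member (PF minus PC) with TMM scaling and its 95% interval, and diamonds the same with library totals only. All 9 intervals include 0, and with library totals every diamond is above 0 while the median of all tested genes is at 0.39 (dashed line) instead of 0.02 (dotted line).

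On the log2 scale the SD within groups exceeded the fitted diet difference for Hspa8, Dnajb1 and Hspa1b. It also did for Hspe1 (SD 0.21, log2 fold change 0.12) and, narrowly, for Hspd1 (SD 0.302, log2 fold change −0.293). This SD was 0.39 for Hspa8, 0.48 for Dnajb1 and 0.63 for Hspa1b, above that of 79.5%, 87.3% and 93.1% of all tested genes. It was 0.14 for both Dnaja1 and Hsp90ab1, above that of 16.5% and 17.2%. Over the 9 tested members the median was 0.25, compared with 0.24 over all tested genes, so the spread was unequal among members and ordinary for the list as a whole. Hspa8, Dnajb1 and Hspa1b were highest in PF2 and PC2 and lower in PF1, PC1 and PC3. Hspd1 went the other way, with its lowest level in PF2.

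Some other genes also had PF2 and PC2 among their 3 highest libraries. Bag3, which links Hsp70 to autophagy and is a target of Hsf1, was at 27.2, 43.5 and 38.6 CPM in PF1, PF2 and PF3 and at 20.6, 33.4 and 18.1 CPM in PC1, PC2 and PC3. Per2, a clock gene whose promoter is also known to respond to Hsf1, was at 20.1, 192 and 92.3 CPM in PF and at 25.9, 97.6 and 10.2 CPM in PC, so that PF2, PC2 and PF3 were again the 3 highest libraries. Per1, another clock gene, was at 4.33, 55.8 and 18.4 CPM in PF and at 17.2, 33.6 and 4.18 CPM in PC, with PF2 and PC2 highest. The part of the clock or of Hsf1 in the library pattern of the members was not tested. Without PF1 and PC3, the libraries with Dbp below Arntl, the median log2 fold change of the members was −0.13, that of Hsp90ab1, with 0 at an unadjusted p under 0.05. With log2 of Dbp over Arntl as a covariate it was −0.23. Both fits were added after the data were seen.

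**Figure D3:**
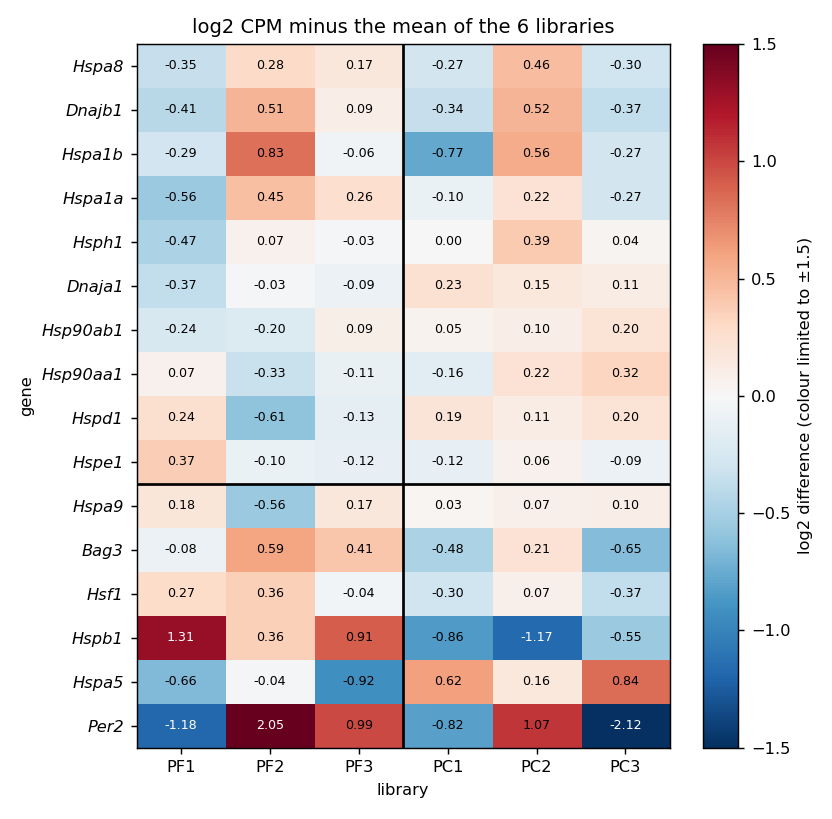
Colours and numbers give, for each gene (rows) and library (columns), log2 of CPM plus 0.5 minus the mean of the 6 libraries, with members above the horizontal line, other genes below it, and PF left of the vertical line. Hspa8, Dnajb1 and Hspa1b are positive in PF2 and PC2 and negative in PF1, PC1 and PC3, on either diet, whereas Hspb1 is positive in all PF and negative in all PC libraries.

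By the measure of likeness used, Pearson's r over the 6 libraries with the mean deviation of the 10 members, protein-coding genes most like them included Aldh3b3, Ubap2, Eef1d, Smim4, Usp10, Churc1 and Mmp15, at r = 0.964 to 0.990. They were selected as the highest over all tested genes, and the 6 points share library and scaling. Aldh3b3, an aldehyde dehydrogenase, was at 6.20, 11.3 and 8.67 CPM in PF1, PF2 and PF3 and at 6.61, 17.9 and 8.70 CPM in PC1, PC2 and PC3, with PC2 highest and PF1 lowest, as in the mean of the members. None of these 7 is a chaperone of the lists used here.

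The other chaperones are counted by list, and the genes with the smallest p of each list are named. Of 4 tested other Hsp70 and Hsp110 genes, 3 were lower and 1 higher in PF, with a median log2 fold change of −0.15. At an unadjusted edgeR p under 0.05, 0 were higher (9.13% over all tested genes) and 1 was lower (7.9%). That one was Hspa13, an Hsp70 of microsomes, at 19.8, 34.1 and 24.7 CPM in PF and at 49.9, 28.8 and 60.3 CPM in PC (log2 fold change −0.82, edgeR adjusted p = 0.246), with PC2 inside the PF range. Hspa4, an Hsp110, was at 106, 99.5 and 102 CPM in PF and at 128, 124 and 128 CPM in PC, without overlap (log2 fold change −0.31, 95% interval −0.62 to 0.01, edgeR adjusted p = 0.309), and turned to 0.07 with library totals. Hspa4l had a log2 fold change of 0.35 (edgeR adjusted p = 0.406).

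Of 10 tested other J-domain genes, 4 were higher and 6 lower, with a median of −0.03. At an unadjusted p under 0.05, 1 was higher (9.13% over all tested genes) and 0 lower (7.9%). Dnajc7, a J-domain protein with tetratricopeptide repeats that binds both Hsp70 and Hsp90, was at 94.4, 77.1 and 81.2 CPM in PF and at 55.2, 69.9 and 60.3 CPM in PC, all PF above all PC (log2 fold change 0.45, 95% interval 0.07 to 0.82, edgeR adjusted p = 0.234, DESeq2 adjusted p = 0.161). It shares its locus with Cnp and Nkiras2 on the other strand, with counts equal to 10.8% and 12.8% of its own.

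Of 14 tested cochaperones of Hsp70 and Hsp90, 6 were higher and 8 lower, with a median of −0.05. At an unadjusted p under 0.05, 0 were higher (9.13% over all tested genes) and 1 was lower (7.9%). Cdc37, which brings kinases to Hsp90, was at 42.8, 45.3 and 56.2 CPM in PF and at 71.5, 56.1 and 65.8 CPM in PC (log2 fold change −0.42, edgeR adjusted p = 0.269), with PF3 just above PC2. Cacybp, which binds the ubiquitin ligase partner Siah1, was higher in all PF than in all PC libraries (log2 fold change 0.33, edgeR adjusted p = 0.298). Fkbp5, a glucocorticoid-induced partner of Hsp90, was at 34.0, 102 and 34.6 CPM in PF and at 147, 111 and 82.9 CPM in PC, with PF2 inside the PC range (95% interval of the log2 fold change −2.07 to 0.07, edgeR adjusted p = 0.322). Bag3 had a log2 fold change of 0.60 (95% interval −0.04 to 1.24, edgeR adjusted p = 0.324).

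The small heat shock protein Hspb1 (Hsp27; chromosome 5, 135916773 to 135918417), an ATP-independent holdase that is also a target of Hsf1, had the smallest unadjusted p (0.000571) of the listed chaperones. It was at 5.49, 2.61 and 4.03 CPM in PF1, PF2 and PF3 and at 0.835, 0.572 and 1.15 CPM in PC1, PC2 and PC3, from 109, 43 and 86 counts against 13, 9 and 20. All PF libraries lay above all PC libraries, and PF2, the library highest in Hspa1b, was the lowest of the 3. The log2 fold change was 2.24 (4.71-fold, 95% interval 1.32 to 3.15, edgeR adjusted p = 0.12), which edgeR did not call and DESeq2 did (adjusted p = 0.000215). Hspb1 passed the expression filter only through PF, with mean FPKM of 4.59 in PF and 0.727 in PC, so a tested gene of this kind had to be higher there. Over the alternatives the log2 fold change ran from 1.63 to 2.64 and the adjusted p from 0.000215 to 0.484. Within edgeR the call also depended on the settings, with an adjusted p of 0.0463 with library totals and 0.00148 without the expression filter. Its promoter window holds a pair of GAANNTTC matches, at −117 to −110 and at −97 to −90 from the start, and the stretch with the second (chr5:135887811-135887840, plus strand, GRCm38.p6) is shown because this gene carries that difference.
Hspb1: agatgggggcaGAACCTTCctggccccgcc
Of the other 3 tested small heat shock genes, Cryab was lower in all PF libraries with TMM (log2 fold change −0.43, edgeR adjusted p = 0.421), while Hspb8 and Hspb6 overlapped between the diets at 0.29 and 0.23. Cryab had only 42, 34 and 36 counts in PF and 37, 47 and 44 in PC. Its deposited FPKM overlapped, at 1.76, 1.37 and 1.37 in PF and 1.36, 1.83 and 1.51 in PC.

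Of 12 tested other mitochondrial chaperones and proteases, 2 were higher and 10 lower, with a median of −0.10 and 0 at an unadjusted p under 0.05 in either direction (0 also by DESeq2). Over all tested genes the edgeR shares at that unadjusted p were 9.13% higher and 7.9% lower. Hspa9, the mitochondrial Hsp70, was at 409, 245 and 405 CPM in PF and at 369, 379 and 385 CPM in PC. As for Hspd1, PF2 was its lowest library. Spg7, a matrix protease subunit, was lower in all PF libraries (log2 fold change −0.34, edgeR adjusted p = 0.301). Of 14 tested subunits of the cytosolic chaperonin TRiC and prefoldin, 5 were higher and 9 lower, with a median of −0.10. Cct2 was lower in all PF libraries, at 69.6, 66.5 and 75.9 CPM against 85.1, 91.1 and 91.3 CPM (log2 fold change −0.34, edgeR adjusted p = 0.275). It was the 1 subunit at an unadjusted edgeR p under 0.05, where 7.9% of all tested genes were lower. With library totals it turned to 0.04.

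The regulators were not called either. Hsf1, the master regulator of the heat shock response, was at 13.8, 14.7 and 11.0 CPM in PF1, PF2 and PF3 and at 9.12, 11.9 and 8.64 CPM in PC1, PC2 and PC3, with PF3 below PC2 (log2 fold change 0.41, 95% interval −0.04 to 0.86, edgeR adjusted p = 0.333). Hsf2 was close to 0 (log2 fold change 0.03). Hsf4 had a log2 fold change of 0.74 (95% interval −0.12 to 1.59, edgeR adjusted p = 0.357). The cold-inducible RNA-binding proteins, which move against heat shock genes with temperature, had log2 fold changes of 0.02 for Cirbp (95% interval −0.38 to 0.42) and 0.18 for Rbm3 (95% interval −0.13 to 0.49, all PF above all PC). Immediate early genes, which respond within minutes to handling, hormones and stress, were tested for 7 of 9, and of these Dusp1 and Fos were higher on HFrD with unadjusted p-values below 0.05 (9.13% over all tested genes). Fosb and Atf3 did not pass the filter, and Fos passed it only through PF3 (6.91 FPKM, with 0.45 and 0.89 in PF1 and PF2 and 0.13 to 0.26 in PC). Dusp1 was at 24.9, 58.8 and 91.8 CPM in PF and at 6.55, 8.58 and 11.6 CPM in PC (edgeR adjusted p = 0.12, DESeq2 adjusted p = 8.75e-07). Its order, with PF3 highest, differed from that of Hspa8 and Dnajb1, and Dusp1 shares its locus with Ergic1, which had 121% of its counts.

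Chaperones of the endoplasmic reticulum are set beside the members for comparison. All 14 tested were lower in PF, 13 at an unadjusted edgeR p under 0.05 (7.9% over all tested genes) and 0 at an adjusted p under 0.05 (0%). DESeq2 called 7 lower (2.61% over all tested genes). The median log2 fold change was −0.93, compared with −0.23 for the members. The difference between the lists was not tested. Hspa5, the Hsp70 of the endoplasmic reticulum known as BiP, was at 579, 895 and 484 CPM in PF and at 1410, 1024 and 1642 CPM in PC (log2 fold change −1.06, edgeR adjusted p = 0.19, DESeq2 adjusted p = 0.0134), and its cytosolic relative Hspa8 had 0.05.

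**Figure D4:**
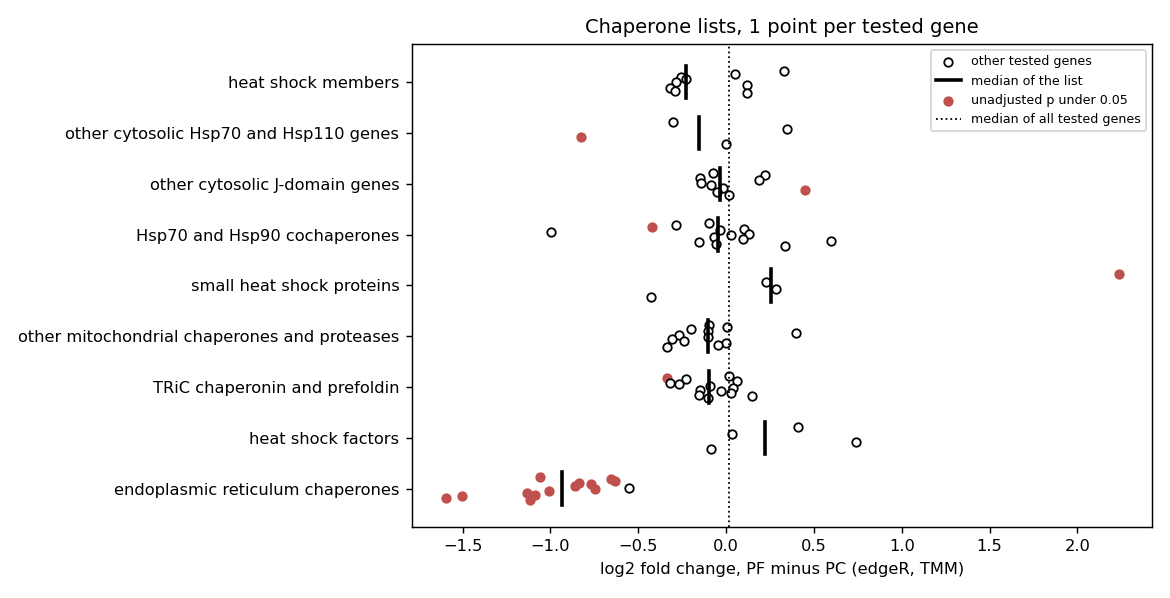
Each point is the log2 fold change (PF minus PC, edgeR with TMM) of 1 tested gene, by list, red where the unadjusted p was under 0.05, with the list median as a vertical bar and the median of all tested genes (0.02) as a dotted line. Immediate early, clock and cold-inducible genes are not plotted. The heat shock members lie between −0.32 and 0.33 with no red point, Hspb1 is the highest plotted point at 2.24, and the endoplasmic reticulum list lies between −1.60 and −0.55.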

How the data were processed

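Poly(A) RNA of 6 livers was sequenced as paired reads. For processing, the submitters' notes list the GRCm39 build, HISAT2 (2.2.1), HTSeq (0.6.1), cutadapt (1.9.1) and DESeq2 without roles. Strand handling and the annotation used were not given in the sources used here. Per the file headers, the deposited table holds whole-number counts and FPKM values per gene. The FPKM values deposited by the authors are counts per exonic kilobase and per 1e6 counts of the library, with no factor for abundant transcripts. The exonic length is a further column deposited by the authors. Symbols were matched for 52073 of 56691 identifiers.

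Counts were tested with edgeR 4.0.16 (R 4.3.3) by the quasi-likelihood test, PF minus PC, two-sided, with TMM factors, on 10756 genes whose FPKM averaged 1 or more, with Benjamini-Hochberg adjustment and a threshold of 0.05. DESeq2 1.42.0, limma 3.58.1 on log2(FPKM + 1) and log2(FPKM + 0.1), other scalings and filters, and leaving out each library were alternatives. The test was tested on simulated data. All 10 members were named, and of each other list up to 3 tested genes with the smallest p, plus Hsf1, Cirbp, Rbm3 and Hspa5. For likeness of pattern, the 8 protein-coding genes with the highest correlation were taken, and 1 of them is not reported here. Bag3, Hspa9, Hspb6, Hsf2, Ttr and Dbp were named after their values were seen. Members and lists were chosen with earlier results of these data known. Shared litters, days or batches are not labelled, so p-values reflect only how these samples spread, which may be technical in part. No libraries of a group agreed within sampling noise, and each was kept as 1 replicate.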

Additional observations from a re-analysis of the deposited data

How the results depend on the processing

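Over 19 alternatives, 0 members passed an adjusted or an unadjusted p under 0.05. The median log2 fold change of the members (−0.23) changed sign with library totals only (0.14) and in limma on log2(FPKM + 1) (0.13) and log2(FPKM + 0.1) (0.13), which make no correction for composition, and it ran from −0.26 to −0.14 with 1 library left out. Signs were followed through every fit for the tested members and some other named genes, and among these the signs of 7 turned in these 3 fits. Spg7 and Hspa9, lower in PF with TMM, were not followed. By library totals their means were 26.4 and 411 CPM in PF and 25.8 and 333 CPM in PC. With library totals the log2 fold changes were 0.13 for Hsp90aa1, 0.14 for Hsp90ab1, 0.068 for Hsph1, 0.042 for Dnaja1, 0.11 for Hspd1, 0.069 for Hspa4 and 0.040 for Cct2. In limma on log2(FPKM + 1) they were 0.11, 0.13, 0.064, 0.036, 0.032, 0.056 and 0.027, and on log2(FPKM + 0.1) 0.11, 0.13, 0.073, 0.037, 0.031, 0.058 and 0.028, in the same order. The median of all tested genes moved by 0.37, 0.27 and 0.35 in these fits. With 1 library left out, signs turned for Hspa8 (−0.083 to 0.34), Dnajb1 (−0.14 to 0.48), Hspa1b (−0.14 to 0.85) and Hspe1 (−0.063, without PF1, to 0.20). Hspe1 was also at −0.084 in the 4 libraries with Dbp above Arntl.

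Deviations of same-numbered libraries correlated at −0.17, 0.28 and 0.11. PF1 was closest to PC3, while PF2 was closest to PC2. With 3 libraries per group such correlations cannot show whether replicate numbers pair the samples. With the replicate block the median of the members was −0.24 with 0 at an unadjusted p under 0.05. Among all tested genes edgeR called 0, DESeq2 493, library totals 180, edgeR without an expression filter 555 of 28042 and edgeR without PF2 403, so the count of all calls rests on these choices. Hspa1a, at 10 counts or fewer in each library, was left out by the expression filter; without the filter its edgeR adjusted p was 0.887.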
